A study of Mus musculus with 27 samples.

Results

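The Hox genes of the mouse stand in 4 clusters, Hoxa, Hoxb, Hoxc and Hoxd, and are described here in embryonic fibroblasts (MEFs) on their way to induced neurons (iNs). The members were all protein-coding rows of the gene table named Hoxa, Hoxb, Hoxc or Hoxd and a paralogue number, so no measured value took part in the choice. They were 40 rows of 54532, with 39 names, since Hoxd4 has a pair of rows. Of these, 34 averaged 0.5 FPKM or more over the 27 libraries and stood among the 14932 genes tested.

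Hox genes encode homeodomain transcription factors that give cells their position along the head to tail axis, and later along the limb. Genes of low paralogue number lie at the 3′ end of a cluster and act toward the head, and genes of high number lie at the 5′ end and act in the posterior trunk, the distal limb and the genital tubercle. Fibroblasts are known to keep the Hox pattern of the body region they came from after they are placed in culture. Paralogue numbers 1 to 3 are called anterior below, 4 to 8 central and 9 to 13 posterior.

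RNA was sequenced in bulk from 27 libraries, 3 of each of 9 groups of genotype (WT, Per1-/- and Per2-/-) and day (0, 2 and 4). All cells were MEFs with lentiviruses for neuronal reprogramming genes, Brn2 and Myt1l among them, and the day 0 libraries were taken before doxycycline, which turns the viral genes on, was added. With the doxycycline, the medium with serum was replaced by the serum-free N3 medium. Days 2 and 4 thus differ from day 0 in both, and effects of the viral genes and of the medium cannot be told apart. The MEFs came from minced embryos without head and heart, several embryos to a dish, so cells of many body levels, and cells other than fibroblasts, could enter the cultures. The mutant mice carried the Per1tm1Drw or the Per2tm1Drw allele, both on a B6.129 background. The labels number the biological replicates 1 to 3 but do not say whether these were separate cultures or animals, so p-values measure the spread between these libraries only.

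Levels are in FPKM, fragments scaled for the length of the gene and the size of the library, so levels can be compared between genes. Libraries held 15815013 to 24264097 fragments. Per1, the gene targeted in Per1-/- cells, stood at 6.33, 5.58 and 5.44 FPKM in WT cells on day 0 and at 4.96, 3.23 and 4.15 FPKM in Per1-/- cells, so transcript of the locus was still counted. Per2 stood at 0.906, 0.957 and 0.817 FPKM in WT cells on day 0 and was higher in the Per2-/- labelled libraries, at 1.87, 2.00 and 1.90 FPKM (log2 fold change 1.03, limma adjusted p = 0.00114). In Per1-/- cells Per2 stood at 1.13, 1.02 and 1.25 FPKM on day 0. The study reported western blots in which PER1 protein was lost from Per1-/- MEFs and PER2 protein from Per2-/- MEFs, and transcript levels do not measure protein. Since the RNA alone does not show the loss of PER2, the cells with that label are called the Per2-/- labelled libraries throughout. The labels call all libraries induced neurons, but on day 0 the 10 neuronal markers summed to 27.2 to 49.3 FPKM and the 10 fibroblast markers to 2048 to 3551 FPKM. The neuronal sum was 109.6 to 205.2 FPKM on day 4, and 8 of 9 tested neuronal markers were higher than on day 0 in each genotype. The 14 macrophage markers were all detected in all libraries and summed to 138.1 to 1139 FPKM on day 0 and 466.5 to 2208 FPKM on day 4. In bulk RNA, fewer cells of a type and less RNA per cell cannot be told apart.

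Posterior and central Hox genes were abundant in the cultures and anterior ones were low. The median level of the 8 anterior rows was 0.683 FPKM ± 0.154 (SD within groups, n = 27), against 4.62 FPKM ± 1.10 for the 16 central rows and 3.84 FPKM ± 0.565 for the 16 posterior rows. The anterior band lay below the others in each of the 9 groups. The order of the central and the posterior band was not the same in all groups, and in the Per2-/- labelled libraries the posterior median was the higher of the pair on day 2 (4.75 FPKM against 4.46 FPKM) and on day 4 (4.35 FPKM against 3.24 FPKM).

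The Hoxa cluster, 105.3 kb of chromosome 6 (GRCm38), lies on the minus strand, and its 11 rows summed to 34.7 FPKM in the lowest library, 55.4 FPKM in the median library and 82.7 FPKM in the highest. The Hoxb cluster covers 173.9 kb of chromosome 11 from 96194316 to 96368256 on the plus strand and lies 27.1 Mb from Per1 on the same chromosome. Its 10 rows summed to 22.1, 46.05 and 74.6 FPKM in the lowest, median and highest library. The 9 rows of Hoxc, on the plus strand of chromosome 15 from 102921103 to 103036852 (115.8 kb), summed to 19.9, 37.7 and 61.0 FPKM. The 10 rows of Hoxd, on the plus strand of chromosome 2 from 74668310 to 74765142 (96.8 kb), summed to 20.8, 40.6 and 120.1 FPKM. The 4 clusters thus had median sums between 37.7 and 55.4 FPKM, and the sum of all 40 rows stayed between 143.4 and 244.7 FPKM. The widest range of the sums was that of Hoxd.

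**Figure D1:**
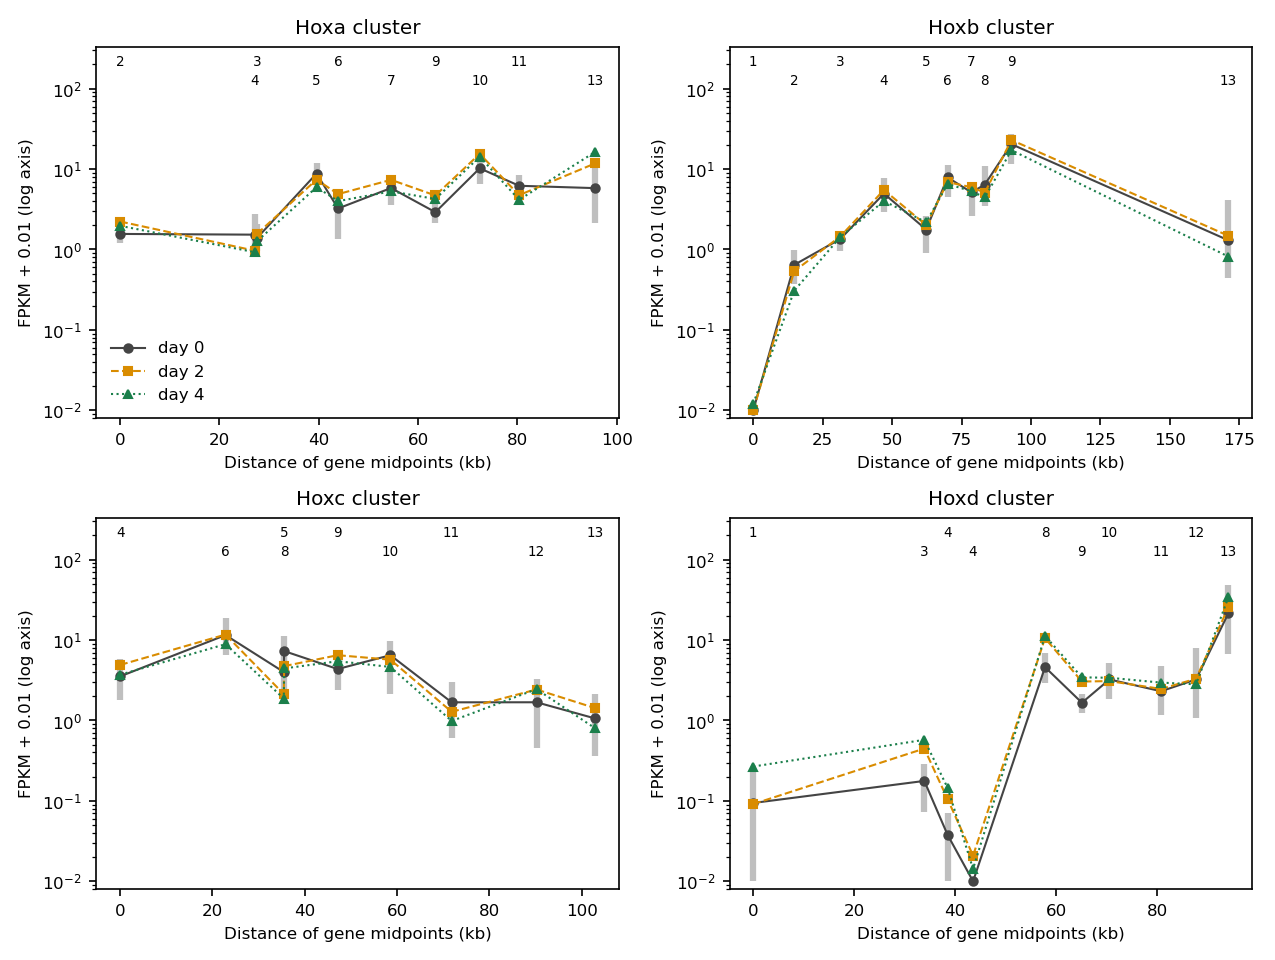
Mean level (FPKM plus 0.01, log axis) of Hox rows along their cluster on days 0, 2 and 4, against the distance in kb from the gene of the lowest paralogue number shown, with the paralogue number at the top and a grey bar for the range over the 9 day 0 libraries. The anterior ends of Hoxa, Hoxb and Hoxd were low, and the highest genes were Hoxd13 (27.1 FPKM) and Hoxb9 (20.2 FPKM).

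The member with the highest mean was Hoxd13 (27.1 FPKM over the 27 libraries), the gene at the 5′ end of Hoxd, needed for digits and the genital tubercle. Hoxb9 followed (20.2 FPKM, range 10.7 to 32.7), a gene of the thoracic region. Hoxa10 was at 13.3 FPKM, Hoxa13 at 11.3 FPKM and Hoxc6 at 10.7 FPKM. The ranges of these neighbours in rank overlapped, so their order did not hold in every library.

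The lowest members were at or near the anterior ends. Hoxb1, a hindbrain gene, was listed at 0 in 26 libraries and had 1 fragment in the other, below the limit of 3 fragments, which were worth at most 0.0875 FPKM. The first row of Hoxd4 (ENSMUSG00000101174) was at 0 in 22 libraries and the second row (ENSMUSG00000115956) in 5, and reads of both could be split between them because the rows overlap. Hoxd1 was at 0 in 7 libraries and at most 0.538 FPKM, and Hoxb2 had a mean of 0.486 FPKM. Hoxd3, mean 0.390 FPKM, was at 0.0633 to 0.279 FPKM in the 9 day 0 libraries and at 0.358 to 1.11 FPKM in the 9 day 4 libraries, with no overlap. It was below the filter and was not tested, was chosen here after its values were seen, and shares 62.8% of its exon bases with other rows. Hoxd1, Hoxd3, the Hoxd4 rows, Hoxb1 and Hoxb2 are the 6 rows that were not tested.

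Hox genes differed more from library to library than most genes of these cultures, and libraries of 1 genotype and replicate number were alike on all days. The spread within groups, as a pooled SD on the log2(FPKM + 0.1) scale, had a median of 0.48 over the 34 tested members against 0.20 over all tested genes and 0.19 over the 11407 genes in the same range of mean FPKM. For 33 of 34 members it was above the median of all genes. It was 0.33 in the median anterior member, 0.46 in the median central and 0.62 in the median posterior member, and ran from 0.20 (Hoxa9) to 1.36 (Hoxb13). Of this spread, the part that lay between replicate numbers of a genotype, rather than between days of a number, had a median of 82.8% over the Hox members and 43.7% over all genes, where unrelated numbers would give 33.3%. It was over 50% in 29 members (85.3%), against 38.0% of all genes. Whether libraries of 1 number on different days came from 1 culture is not given in the sources used here, and no cause of the likeness was tested.

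In the values below, FPKM are given for days 0, 2 and 4 in that order, and a number is the replicate number of the labels. The 3 members of each cluster with the highest mean and, with 1 exception, the members called in WT cells on day 4 are given in every library.

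Hoxd13 was at 25.8, 40.05 and 51.4 FPKM in WT number 1, 47.98, 44.1 and 56.01 in number 2 and 11.7, 7.77 and 13.5 in number 3. Hoxd13 in Per1-/- cells was at 6.64, 5.44 and 5.285 FPKM in number 1, 14.4, 19.4 and 24.4 in number 2 and 10.8, 8.16 and 14.1 in number 3. Hoxd13 in the Per2-/- labelled libraries was at 40.5, 62.9 and 87.9 FPKM in number 1, 14.8, 18.3 and 23.4 in number 2 and 21.45, 24.2 and 30.7 in number 3. In WT cells the libraries numbered 3 were the low ones on all days, and their values did not overlap with those of the other numbers. In Per1-/- cells number 1 was low on all days, and in the Per2-/- labelled libraries number 1 was the high one. Of the spread within groups of Hoxd13, 94.6% lay between numbers. Hoxd13 had 270 to 4867 fragments per library.

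The promoters of Hoxd13 and Hoxa13 are shown because these genes varied together although they lie on different chromosomes. They are the 250 bases before the RefSeq start of each gene (GRCm38.p6), chr2:74667975-74668224 on the plus strand for Hoxd13 and chr6:52260881-52261130 on the minus strand for Hoxa13, written 5′ to 3′ in the direction of the gene. Capitals mark the TATA box letters TATAAA on either strand, which overlap here.
Hoxd13: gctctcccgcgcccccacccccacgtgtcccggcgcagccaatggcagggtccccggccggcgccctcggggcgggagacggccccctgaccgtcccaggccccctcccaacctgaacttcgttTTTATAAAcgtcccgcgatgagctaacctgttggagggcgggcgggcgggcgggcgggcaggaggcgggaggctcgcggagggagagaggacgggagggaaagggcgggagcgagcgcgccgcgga
Hoxa13: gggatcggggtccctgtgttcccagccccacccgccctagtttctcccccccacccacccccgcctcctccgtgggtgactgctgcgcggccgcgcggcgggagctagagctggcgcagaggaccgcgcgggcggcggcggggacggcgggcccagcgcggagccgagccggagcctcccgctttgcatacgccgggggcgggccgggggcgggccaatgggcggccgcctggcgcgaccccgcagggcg
The Hoxd13 window holds the TATA box letters and the Hoxa13 window, 80.0% G and C, holds none of the 4 motifs searched. Promoters were found for 22 of 39 names (24 windows). The letters TATAAA stood in 4 of the 24 and in 12.4% of 32851 promoters of all genes, the PBX-HOX letters TGATTNAT in 2 and 2.82%, the CDX letters TTTATNG in 2 and 9.81%, and the retinoic acid receptor letters AGGTCA in 6 and 14.0%. Median GC content was 58.6% for the Hox windows and 52.4% for all. These matches on both strands describe letters only.

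Hoxa13 was at 5.655, 15.15 and 21.4 FPKM in WT number 1, 11.5, 19.01 and 19.8 in number 2 and 4.78, 4.955 and 7.19 in number 3. Hoxa13 in Per1-/- cells was at 2.195, 3.002 and 4.05 FPKM in number 1, 2.78, 8.898 and 10.1 in number 2 and 2.14, 4.435 and 6.62 in number 3. Hoxa13 in the Per2-/- labelled libraries was at 10.6, 23.3 and 40.5 FPKM in number 1, 5.64, 9.28 and 10.9 in number 2 and 6.74, 17.99 and 26.5 in number 3. Hoxa13, the paralogue of Hoxd13 in the Hoxa cluster and likewise a gene of the hand and foot plate, was lowest in WT number 3, highest in Per1-/- number 2 and highest in number 1 of the Per2-/- labelled libraries on each day. Hoxd13 had the same extremes. Over the 27 libraries, deviations from the group means of the pair had Pearson's r = 0.94 (log2 scale), and those of Hoxd13 and its cluster neighbour Hoxd12 had r = 0.95. These correlations are given as descriptions, since libraries of 1 number may not be independent.

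Hoxd10 was at 3.04, 4.12 and 5.16 FPKM in WT number 1, 4.68, 3.63 and 4.68 in number 2 and 1.84, 2.18 and 1.77 in number 3. Hoxd10 in Per1-/- cells was at 2.82, 3.26 and 2.275 FPKM in number 1, 2.93, 2.49 and 2.16 in number 2 and 2.46, 2.215 and 1.23 in number 3. Hoxd10 in the Per2-/- labelled libraries was at 5.22, 6.06 and 8.35 FPKM in number 1, 3.155, 2.29 and 3.26 in number 2 and 2.91, 1.46 and 1.63 in number 3. Hoxd10, active in the limb and the lumbar spinal cord, was again highest on each day in number 1 of the Per2-/- labelled libraries, at up to 8.35 FPKM. The WT libraries numbered 3 were below the other WT libraries on each day. Hoxd10 had 51 to 338 fragments per library, fewer than Hoxd13.

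The 4 Hoxd genes from Hoxd10 to Hoxd13 and Hoxa13 formed a block, chosen after the values were seen, and are called distal here. Hoxd9, also posterior by its number, was left out and had Hoxa3 as its nearest member (r = 0.64). All 10 pairs of the 5 distal genes had positive r, with a median of 0.86. A second block, called trunk here, was made of the 14 genes Hoxb3 to Hoxb9 and Hoxc4 to Hoxc11. All of its 91 pairs were positive with a median of 0.81. All 70 pairs of a trunk gene and a distal gene were negative, with a median of -0.60. The opposition was not complete. WT number 1 was, on average over the days, above its group means in the 5 distal genes. It was also above them in Hoxb3, Hoxb6 to Hoxb9, Hoxc10 and Hoxc11 of the trunk block, by 0.039 to 0.331 on the log2 scale. Per1-/- number 1 was below its group means in both Hoxd13 and Hoxb9. Another block of Hoxb13, Hoxc12 and Hoxc13, called terminal here, had r of 0.63 to 0.81 among themselves and a median of -0.05 with the distal genes. These r cannot be read as tests, since the blocks were drawn from them and the 27 libraries may share cultures. The block names are labels only, since the trunk block holds Hoxc10, known from the hindlimb, and leaves out Hoxd8.

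**Figure D2:**
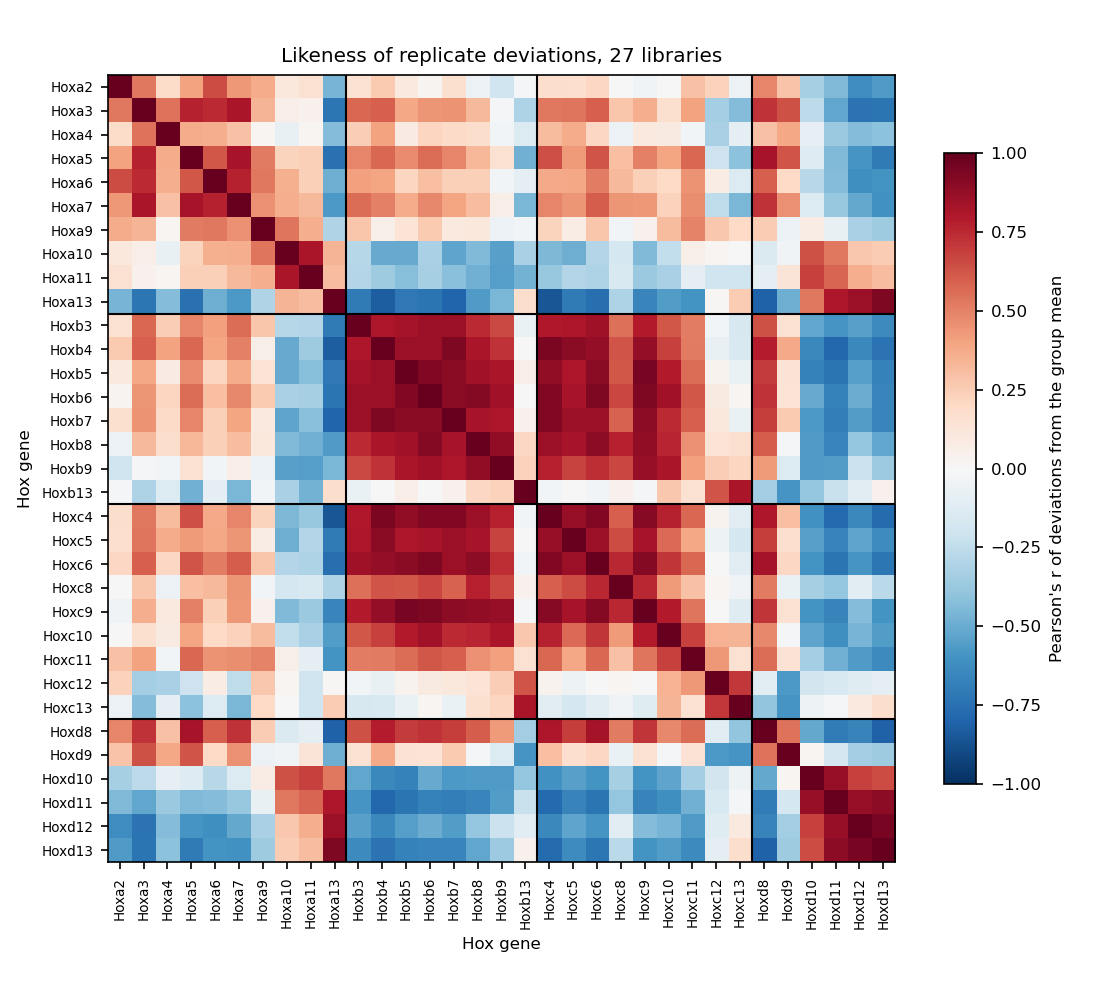
Pearson's r between tested Hox members over 27 libraries, from log2(FPKM + 0.1) minus the group mean, with clusters marked on both axes and colour from -1 to 1. Hoxb3 to Hoxb9 and Hoxc4 to Hoxc11 form 1 positive field, Hoxa13 and Hoxd10 to Hoxd13 another, and all 70 pairs between the trunk and the distal genes are negative.

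Hoxb9 was at 24.3, 23.2 and 16.5 FPKM in WT number 1, 11.4, 16.4 and 11.9 in number 2 and 25.9, 31.3 and 24.6 in number 3. Hoxb9 in Per1-/- cells was at 16.4, 13.7 and 12.1 FPKM in number 1, 19.4, 23.4 and 19.8 in number 2 and 27.1, 32.7 and 27 in number 3. Hoxb9 in the Per2-/- labelled libraries was at 16.1, 19.8 and 10.7 FPKM in number 1, 26.2, 26.03 and 18.99 in number 2 and 16.7, 20.4 and 13.2 in number 3. Hoxb9 was highest in number 3 of WT and of Per1-/- cells on each day and highest in number 2 of the Per2-/- labelled libraries on each day. It ranged over 10.7 to 32.7 FPKM, with 92.9% of its spread within groups between numbers.

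Hoxb6 was at 7.84, 7.04 and 6.98 FPKM in WT number 1, 4.45, 4.655 and 4.32 in number 2 and 11.3, 9.04 and 9.42 in number 3. Hoxb6 in Per1-/- cells was at 8.37, 6.14 and 7.498 FPKM in number 1, 7.04, 6.78 and 5.55 in number 2 and 10.97, 10.2 and 9.41 in number 3. Hoxb6 in the Per2-/- labelled libraries was at 5.67, 5.401 and 3.36 FPKM in number 1, 9.81, 7.99 and 7.698 in number 2 and 5.41, 4.704 and 4.33 in number 3. Hoxb6, a central gene of the thoracic region, had the same high numbers as Hoxb9 on each day. Between numbers lay 94.1% of its spread.

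Hoxb7 was at 6.297, 5.25 and 4.68 FPKM in WT number 1, 2.598, 4.385 and 3.81 in number 2 and 6.23, 6.67 and 7.88 in number 3. Hoxb7 in Per1-/- cells was at 4.45, 6.31 and 5.41 FPKM in number 1, 5.34, 4.93 and 4.999 in number 2 and 6.93, 9.15 and 7.02 in number 3. Hoxb7 in the Per2-/- labelled libraries was at 3.825, 4.32 and 2.296 FPKM in number 1, 6.36, 7.91 and 7.815 in number 2 and 4.06, 4.53 and 3.74 in number 3. Hoxb7 was highest in WT number 3 on days 2 and 4 but in number 1 on day 0, where the values of 6.30 and 6.23 FPKM were close. Its r was 0.93 with Hoxb4, the member most like it.

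Hoxc6 was at 11.04, 11.9 and 8.18 FPKM in WT number 1, 7.165, 7.545 and 6.38 in number 2 and 18.7, 14.9 and 13.2 in number 3. Hoxc6 in Per1-/- cells was at 13.3, 11.8 and 10.1 FPKM in number 1, 6.49, 11.4 and 7.43 in number 2 and 16.3, 16.7 and 14 in number 3. Hoxc6 in the Per2-/- labelled libraries was at 6.56, 7.95 and 3.35 FPKM in number 1, 16, 15.15 and 10.85 in number 2 and 8.15, 7.97 and 6.499 in number 3. Hoxc6, on another chromosome and also a thoracic gene, repeated the Hoxb pattern. WT number 3, Per1-/- number 3 and number 2 of the Per2-/- labelled libraries were the highest of their genotype on each day. Its nearest member was Hoxb6 (r = 0.94), outside its own cluster.

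Hoxc10 was at 6.17, 5.68 and 4.46 FPKM in WT number 1, 2.101, 2.698 and 1.88 in number 2 and 8.095, 6.34 and 6.82 in number 3. Hoxc10 in Per1-/- cells was at 7.23, 5.64 and 5.015 FPKM in number 1, 7.375, 6.81 and 5.33 in number 2 and 7.52, 8.51 and 6.07 in number 3. Hoxc10 in the Per2-/- labelled libraries was at 5.03, 5.21 and 2.94 FPKM in number 1, 9.87, 4.78 and 5.07 in number 2 and 4.898, 5.615 and 4.06 in number 3. Hoxc10, known from the lumbar spinal cord and the hindlimb, was lowest in WT number 2 on each day, at 1.88 to 2.70 FPKM. In Per1-/- cells its values of the 3 numbers overlapped.

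Hoxc8 was at 6.48, 4.62 and 4.35 FPKM in WT number 1, 6.18, 5.496 and 4.125 in number 2 and 7.94, 5.47 and 4.91 in number 3. Hoxc8 in Per1-/- cells was at 7.81, 3.77 and 4.204 FPKM in number 1, 4.15, 4.7 and 5.54 in number 2 and 11.2, 7.48 and 6.604 in number 3. Hoxc8 in the Per2-/- labelled libraries was at 5.53, 3.745 and 2.57 FPKM in number 1, 10.6, 3.97 and 4.55 in number 2 and 5.66, 3.35 and 3.05 in number 3. Hoxc8, which patterns thoracic vertebrae, was highest in number 2 of the Per2-/- labelled libraries on each day, by a wide margin on day 0 (10.6 FPKM) and a narrow one on day 2 (3.97 FPKM). Between numbers lay 67.6% of its spread.

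The member nearest by r was in the same cluster for 18 of 34 members and in another cluster for the rest. Within Hoxb the median r over 28 pairs was 0.82, between Hoxb and Hoxc it was 0.67 over 72 pairs, and between Hoxb and Hoxd it was -0.51 over 48 pairs. Hoxa was mixed, with a median of 0.36 over 55 pairs.

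Hoxa10 was at 10.2, 16.5 and 15.75 FPKM in WT number 1, 12.4, 15.9 and 14.5 in number 2 and 9.91, 13.3 and 13.1 in number 3. Hoxa10 in Per1-/- cells was at 11.5, 15.8 and 14.1 FPKM in number 1, 7.18, 15.45 and 11.5 in number 2 and 6.52, 13.1 and 10.3 in number 3. Hoxa10 in the Per2-/- labelled libraries was at 11.5, 19.7 and 19.9 FPKM in number 1, 13.6, 14.7 and 14.4 in number 2 and 9.2, 14.7 and 14.6 in number 3. Hoxa10, required for lumbar patterning and in the uterus, had a within-group SD of 0.25 on the log2 scale, low among the Hox members and above the median of all genes. Its nearest member was Hoxa11 (r = 0.81), and it was negative with 13 of the 14 trunk genes.

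Hoxa5 was at 8.01, 7.69 and 5.96 FPKM in WT number 1, 7.29, 6.597 and 6.15 in number 2 and 10.7, 9.515 and 8.74 in number 3. Hoxa5 in Per1-/- cells was at 12.03, 10.1 and 9.09 FPKM in number 1, 6.57, 7.201 and 5.03 in number 2 and 8.88, 6.24 and 5.31 in number 3. Hoxa5 in the Per2-/- labelled libraries was at 7.23, 5.87 and 3.705 FPKM in number 1, 11.2, 7.35 and 6.71 in number 2 and 7.18, 5.96 and 2.88 in number 3. Hoxa5, which patterns the neck and upper thorax, was highest in WT number 3, Per1-/- number 1 and number 2 of the Per2-/- labelled libraries on each day. Its nearest member was Hoxd8 (r = 0.82).

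The other 18 tested members are given by their ranges. Hoxb4, Hoxb5, Hoxb8, Hoxc4 and Hoxc9, all of the trunk block, had means of 1.98 to 5.43 FPKM and 75.5% to 90.8% of their spread between numbers. Hoxb5 and Hoxc9, on different chromosomes, were each other's nearest member (r = 0.95), as were Hoxb4 and Hoxc4 (r = 0.94). Hoxb3 ran from 0.517 to 2.165 FPKM and Hoxc11 from 0.422 to 2.99 FPKM. In Hoxa, Hoxa3, Hoxa4, Hoxa6 and Hoxa7 had means of 1.40, 1.13, 4.03 and 6.14 FPKM, and the posterior Hoxa9 and Hoxa11 were at 3.94 and 5.02 FPKM. Hoxd11 and Hoxd12 had means of 2.57 and 3.11 FPKM and had Hoxd13 as their nearest member (r = 0.90 and 0.95).

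Hoxb13 was at 4.07, 0.91 and 0.461 FPKM in WT number 1, 0.438, 0.525 and 0.102 in number 2 and 0.926, 0.373 and 0.141 in number 3. Hoxb13 in Per1-/- cells was at 0.492, 0.311 and 0.331 FPKM in number 1, 1.09, 0.396 and 0.2499 in number 2 and 1.41, 2.14 and 1.41 in number 3. Hoxb13 in the Per2-/- labelled libraries was at 0.643, 0.893 and 0.549 FPKM in number 1, 0.938, 0.1395 and 0.259 in number 2 and 1.61, 7.54 and 3.75 in number 3. Hoxb13, of the tail bud, colon and prostate and set apart from the rest of its cluster by a wide gap, had the largest spread within groups of the members, and was chosen here after its values were seen. Its highest libraries were number 3 of the Per2-/- labelled libraries on days 2 and 4 and WT number 1 on day 0. Hoxc13, its paralogue, known from hair and nails, was most like it (r = 0.81) and ran from 0.164 to 3.24 FPKM. With 5 to 326 fragments per library for Hoxb13 and 9 to 156 for Hoxc13, the low values are coarse.

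**Figure D3:**
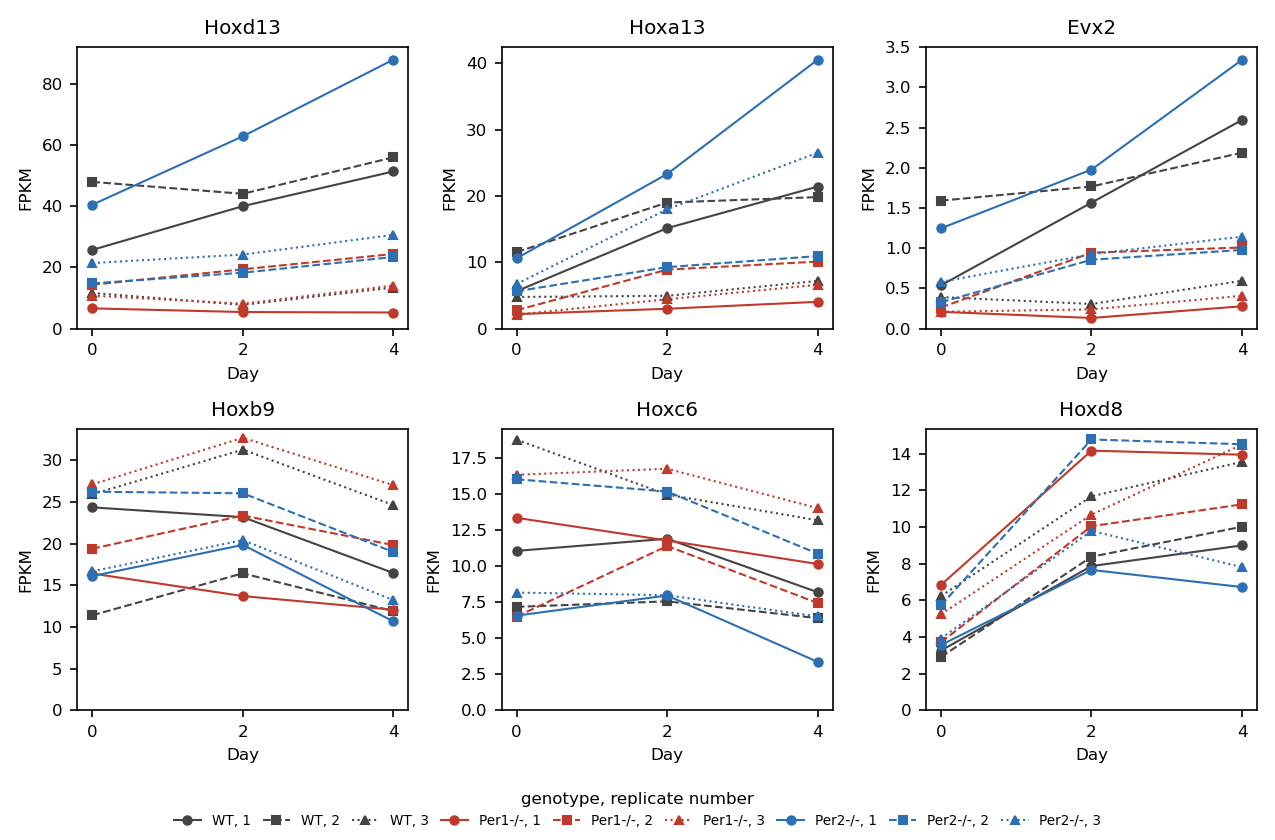
FPKM of Hoxd13, Hoxa13, Evx2, Hoxb9, Hoxc6 and Hoxd8 by day, with colour for genotype and a marker and line for each replicate number. The lines of 1 number mostly keep their place over the days. Number 1 of the Per2-/- labelled libraries is the highest of its genotype for Hoxd13 (40.5 to 87.9 FPKM) and the lowest for Hoxc6 (3.35 to 7.95 FPKM).

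The likeness of libraries was also taken over the whole set of members, as a description. Over the 34 members, deviations from the group means of a pair of libraries with the same genotype and number on different days had r of 0.18 to 0.93 with a median of 0.74 (27 pairs). Over all 14932 genes the same pairs had r of -0.02 to 0.29 with a median of 0.13. Pairs of 1 genotype with other numbers had a median of -0.40 over the Hox members (54 pairs). Deviations within a group cancel out, so likeness within a number forces negative r between numbers. The value of -0.40 is therefore not a separate observation. Libraries of different genotypes with the same day and number were mixed, with r of -0.65 to 0.71 and a median of -0.07 over the Hox members, and r over 0.1 in 11 of 27 pairs. Libraries of 1 genotype thus shared a Hox profile by number, and libraries of different genotypes did so in some pairs and not in others.

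**Figure D4:**
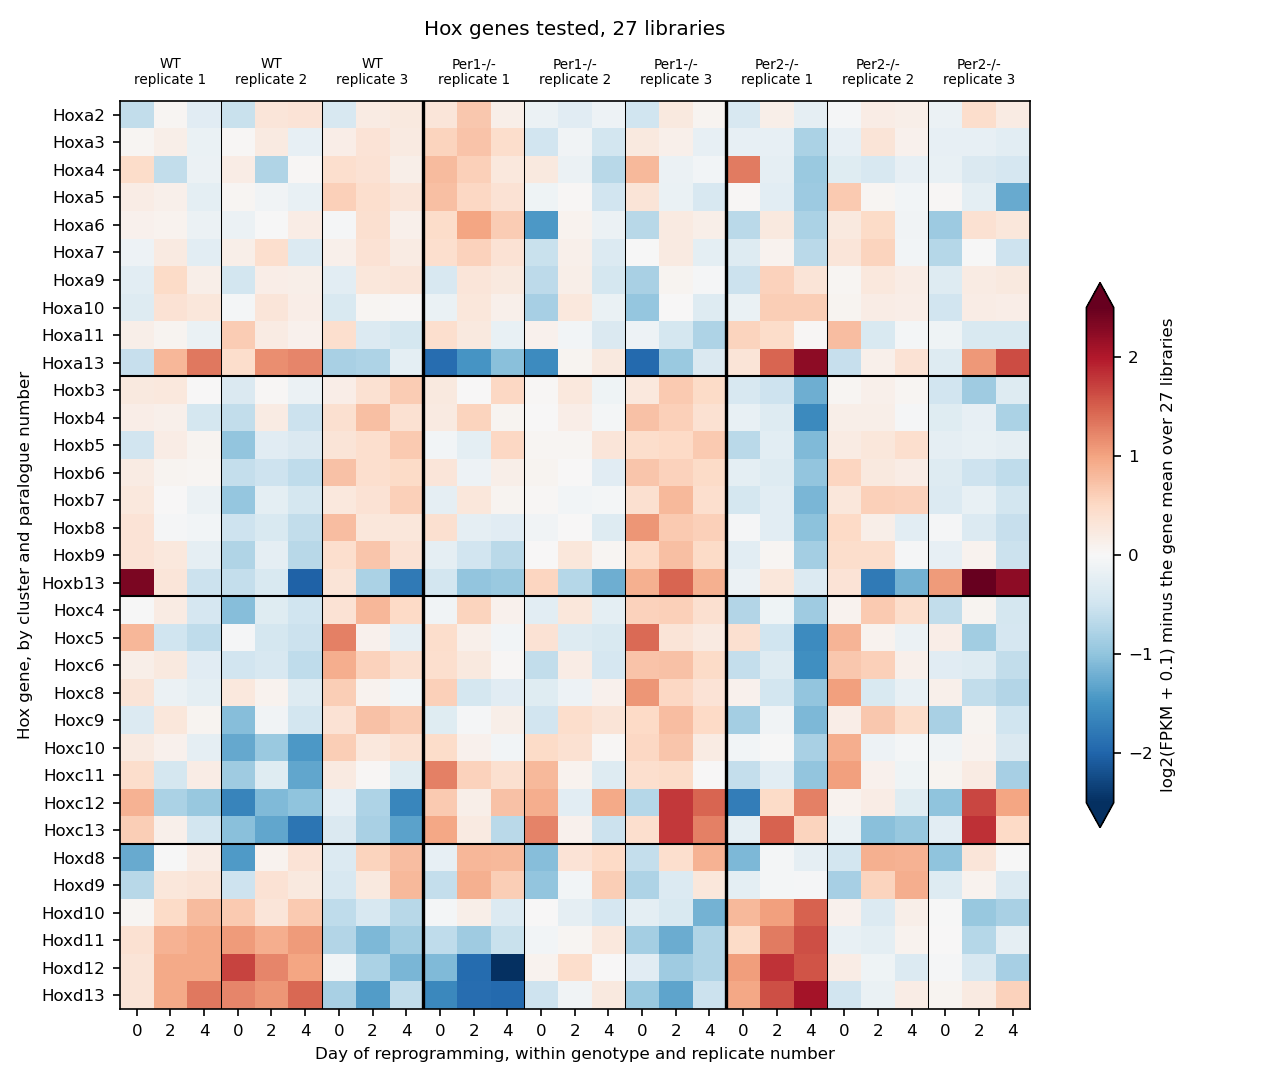
Deviation of log2(FPKM + 0.1) from each gene's mean over the 27 libraries for tested Hox members (rows, by cluster), with libraries in columns by genotype, then replicate number, then day, and colours cut at -2.5 and 2.5. The 3 days of a number mostly look alike, and Hoxd13 is high in WT numbers 1 and 2 and in number 1 of the Per2-/- labelled libraries.

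Correlations were tested within each day, where no number of a genotype occurs again, after centring on the genotype, for the member of each cluster with the highest mean (6 pairs on 3 days, 18 relations, n = 9). For Hoxb9 and Hoxc6 Pearson's r was 0.75, 0.76 and 0.74 on days 0, 2 and 4 and Spearman's rho 0.72, 0.73 and 0.67. A two-sided exact permutation test within genotypes gave p = 0.0833, 0.0139 and 0.0463 for r, each with an adjusted p of 0.1875, and p = 0.0694, 0.0185 and 0.0787 for rho. Pearson's r was 0.62, 0.88 and 0.85 without the 2 libraries farthest from the median of Hoxb9. For Hoxc6 and Hoxd13 r was -0.86, -0.64 and -0.76 and rho -0.82, -0.67 and -0.83. The exact permutation p were 0.0278, 0.1157 and 0.0556 for r (adjusted p = 0.1875, 0.2083 and 0.1875) and 0.0278, 0.1111 and 0.0324 for rho, and r without the 2 libraries farthest from the median of Hoxc6 was -0.73, -0.32 and -0.68. None of the 18 relations passed after adjustment, where 216 arrangements allow no p below 0.00463. The sign was the same on all 3 days for both pairs, but the days share numbers. The other pairs are given by r on days 0, 2 and 4. Hoxb9 and Hoxd13 had r of -0.62, -0.30 and -0.27, and Hoxa10 and Hoxb9 had -0.35, -0.62 and -0.79. The sign changed between days for Hoxa10 and Hoxc6 (0.10, -0.62 and -0.70) and for Hoxa10 and Hoxd13 (-0.15, 0.73 and 0.29).

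Genes outside the clusters with a role in axial or limb position moved with the same libraries. Evx2, the even-skipped homeobox gene 8.8 kb beyond Hoxd13 (chromosome 2, 74652991 to 74659557, minus strand), followed Hoxd13 with r = 0.95. Evx2 was at 0.539, 1.57 and 2.59 FPKM in WT number 1, at 1.59, 1.77 and 2.19 FPKM in number 2 and at 0.393, 0.307 and 0.596 FPKM in number 3. Meis1, a TALE partner of Hox proteins that marks the proximal limb, had r = -0.79 with Hoxd13 and 0.86 with Hoxc6. Shox2, a gene of the proximal limb skeleton, had r = -0.84 with Hoxd13 and 0.82 with Hoxc6, and Gdf11, a signal that sets the trunk to tail boundary, had r = -0.65 and 0.85. Lmx1b, of the dorsal limb, and Tbx4, of the hindlimb, had r = 0.68 and 0.52 with Hoxd13. These genes were picked after their r were seen, from 19 tested genes of the TALE and position lists, whose r with Hoxd13 ran from -0.84 to 0.95. The Cdx genes, which switch on Hox genes in the early embryo, were at or near 0, with Cdx2 listed at 0 in all 27 libraries.

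Summed markers of cell types were set beside Hoxd13 over the 27 libraries. The fibroblast sum had r = 0.15 with Hoxd13, the macrophage sum -0.02, the skeletal muscle sum -0.01, the chondrocyte sum 0.13 and the endothelial sum -0.48. The 7 endothelial markers summed to 2.78 to 11.8 FPKM over all libraries, with Pecam1 at most 0.156 FPKM and Tie1 at most 0.0574 FPKM. With Hoxc6 the macrophage sum had r = -0.02 and the chondrocyte sum -0.42, and with Hoxb9 the chondrocyte sum had -0.44 and the fibroblast sum -0.29. Hoxa10 stood closer to the mixture, with r = -0.52 for the macrophage sum, 0.51 for the fibroblast sum and -0.48 for the skeletal muscle sum. The part of the cell mixture in the Hox values was not tested.

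Most Hox genes were not called as changed over the days of reprogramming. A call needed an adjusted p no higher than 0.05 (limma on log2(FPKM + 0.1), adjusted over all 14932 genes) and a log2 change of 0.58 or more up or down. On day 4 against day 0, 3 of 34 members were higher and 2 lower in WT cells, where 22.9% of all genes were higher and 20.9% lower. In Per1-/- cells 3 were higher and 1 lower (22.6% and 20.4% of all genes), and in the Per2-/- labelled libraries 3 were higher and 4 lower (21.6% and 18.8%). On day 2 against day 0 the counts were 4 higher and 2 lower in WT cells (20.8% and 19.7% of all genes), 5 and 1 in Per1-/- cells (20.8% and 18.8%) and 3 and 3 in the Per2-/- labelled libraries (18.7% and 16.8%). Both directions together and without a replicate block, 11.8% to 20.6% of the members were called against 35.5% to 43.8% of all genes, in comparisons that share day 0 libraries within a genotype. With genotype and replicate number as a block, 20.6% to 38.2% of the members were called in these comparisons. The share of all genes was then 36.6% to 44.7%. On day 4 in the Per2-/- labelled libraries it was 38.2% of the members and 41.5% of all genes. The larger spread of the members stands beside these counts, and its part in them was not otherwise tested. Without the block, leaving out 1 library moved the day 4 count to 8 in WT cells (without day 0 replicate 2). It moved to 7 in Per1-/- cells (without day 0 replicate 1 or 2 or day 4 replicate 1) and to 4 in the Per2-/- labelled libraries (without day 4 replicate 1). The median log2 fold change of the members on day 4 was -0.17 for WT, -0.14 for Per1-/- and -0.18 for the Per2-/- labelled libraries, against medians between -0.02 and 0.0045 over all genes.

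The direction of these counts depended on the scale. FPKM rescaled to a common sum (TPM) moved the median of all genes up by 0.25 to 0.41 on the log2 scale in the 6 comparisons. With limma on that scale 7 members were higher and 1 lower on day 4 in WT cells (36.7% and 10.1% of all genes), 6 and 1 in Per1-/- cells (31.4% and 12.2%) and 6 and 4 in the Per2-/- labelled libraries (29.7% and 11.7%). On day 2 all 9 calls in WT cells were higher (37.3% of all genes higher and 8.39% lower), as were all 8 in Per1-/- cells (35.6% and 7.92%), and 11 were higher and 1 lower in the Per2-/- labelled libraries (31% and 8.48%). Markers of neurons, macrophages and fibroblasts moved over the same days, as given above, and their part in the Hox changes was not tested.

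**Figure D5:**
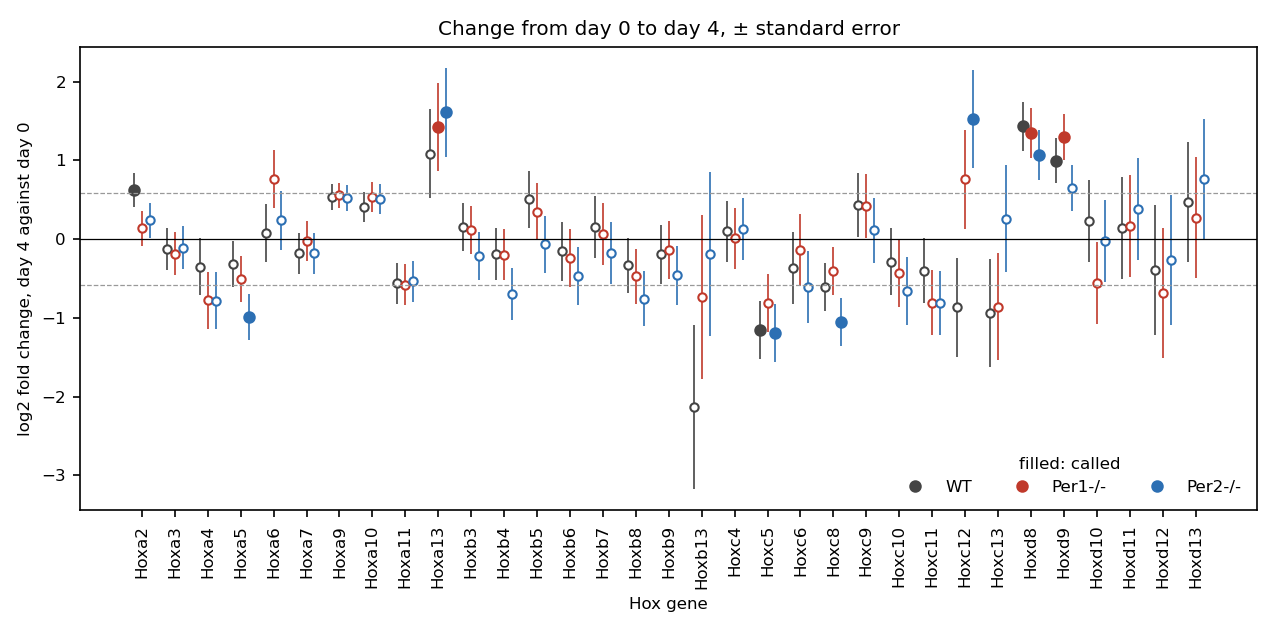
Log2 fold change from day 0 to day 4 with its standard error (limma) for tested Hox members in the 3 genotypes, with filled points for called members and dashed lines at -0.58 and 0.58. Hoxd8 lies above the upper line in all 3 genotypes, and the Hoxb genes have open points only in this fit without a replicate block.

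Hoxd8 was at 3.26, 7.865 and 8.99 FPKM in WT number 1, 2.91, 8.37 and 10.01 in number 2 and 6.23, 11.7 and 13.55 in number 3. Hoxd8 in Per1-/- cells was at 6.84, 14.2 and 13.9 FPKM in number 1, 3.71, 10.04 and 11.2 in number 2 and 5.23, 10.7 and 14.5 in number 3. Hoxd8 in the Per2-/- labelled libraries was at 3.56, 7.66 and 6.72 FPKM in number 1, 5.72, 14.8 and 14.5 in number 2 and 3.915, 9.785 and 7.81 in number 3. Hoxd8, a central gene of the trunk, rose in all 6 comparisons of days. Its mean in WT cells was 4.13 FPKM ± 1.83 on day 0 and 10.85 FPKM ± 2.39 on day 4 (SD, n = 3), a log2 fold change of 1.43 ± 0.31 (SE, limma adjusted p = 0.000475). By limma it was 1.35 ± 0.31 in Per1-/- cells (adjusted p = 0.00085) and 1.07 ± 0.31 in the Per2-/- labelled libraries (adjusted p = 0.00589). The last call was lost without Per2-/- day 4 replicate 2 (0.74). Day 4 was above day 0 in all 9 series of 1 genotype and number. Over the libraries Hoxd8 went with the trunk genes (median r = 0.69) and against the distal genes of its own cluster (-0.70).

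The promoter of Hoxd8 is shown as that of the member that rose in all 6 comparisons of days. It is chr2:74704365-74704614 on the plus strand, 250 bases before the RefSeq start (GRCm38.p6), with the letters AGGTCA in capitals.
Hoxd8: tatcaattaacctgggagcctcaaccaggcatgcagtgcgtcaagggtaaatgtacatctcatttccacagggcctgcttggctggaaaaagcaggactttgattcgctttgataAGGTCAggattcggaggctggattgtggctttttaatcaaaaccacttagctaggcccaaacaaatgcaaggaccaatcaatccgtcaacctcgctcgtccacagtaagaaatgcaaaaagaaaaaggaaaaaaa
The letters AGGTCA are those of a retinoic acid receptor motif and stood in 6 of the 24 Hox windows, as given above.

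Hoxd9 was at 1.525, 3.09 and 3.18 FPKM in WT number 1, 1.72, 3.25 and 3.01 in number 2 and 1.89, 2.99 and 4.49 in number 3. Hoxd9 in Per1-/- cells was at 1.645, 4.78 and 3.94 FPKM in number 1, 1.215, 2.41 and 3.93 in number 2 and 1.43, 1.98 and 3.08 in number 3. Hoxd9 in the Per2-/- labelled libraries was at 2.1, 2.44 and 2.46 FPKM in number 1, 1.37, 3.77 and 4.82 in number 2 and 1.985, 2.68 and 1.96 in number 3. Hoxd9, its 5′ neighbour, rose in WT cells (1.00 ± 0.29 on day 4, limma adjusted p = 0.00513) and in Per1-/- cells (1.29 ± 0.29, adjusted p = 0.000592). The libraries labelled Per2-/- stood at 0.65 ± 0.29 (limma adjusted p = 0.0588), and there number 3 had nearly the same level on days 0 and 4. The change in neither mutant differed from that in WT cells by the test (limma adjusted p = 1 for both).

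Hoxc5 was at 4.37, 1.675 and 1.51 FPKM in WT number 1, 2.35, 1.74 and 1.63 in number 2 and 5.89, 2.58 and 2.03 in number 3. Hoxc5 in Per1-/- cells was at 3.296, 2.62 and 2.297 FPKM in number 1, 3.13, 1.91 and 1.82 in number 2 and 6.6, 3.04 and 2.83 in number 3. Hoxc5 in the Per2-/- labelled libraries was at 3.199, 1.67 and 0.741 FPKM in number 1, 4.41, 2.54 and 2.15 in number 2 and 2.71, 1.27 and 1.78 in number 3. Hoxc5, a gene of the neck and upper thorax, fell in WT cells (-1.16 ± 0.37 on day 4, limma adjusted p = 0.00961) and in the Per2-/- labelled libraries (-1.19 ± 0.37, adjusted p = 0.00867). In Per1-/- cells it was -0.81 ± 0.37 (limma adjusted p = 0.0599). The WT call was lost on the TPM scale (-0.77) and without WT day 0 replicate 3 (-0.87), and the other without Per2-/- day 4 replicate 1 (-0.76). Day 4 was below day 0 in all 9 series.

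Hoxa2 was at 1.18, 1.94 and 1.51 FPKM in WT number 1, 1.225, 2.315 and 2.38 in number 2 and 1.38, 2.175 and 2.21 in number 3. Hoxa2 in Per1-/- cells was at 2.33, 3.045 and 2.08 FPKM in number 1, 1.68, 1.51 and 1.69 in number 2 and 1.297, 2.21 and 1.95 in number 3. Hoxa2 in the Per2-/- labelled libraries was at 1.38, 2.08 and 1.57 FPKM in number 1, 1.82, 2.14 and 2.07 in number 2 and 1.67, 2.56 and 2.17 in number 3. Hoxa2, which patterns the hyoid arch and its neural crest, rose on day 4 in WT cells (0.62 ± 0.22, limma adjusted p = 0.0179) and stood at 0.14 ± 0.22 in Per1-/- cells and 0.24 ± 0.22 in the Per2-/- labelled libraries, neither of them called. The difference of either change from that of WT did not pass (limma adjusted p = 1 for both). The WT call was lost with a pseudocount of 1 (0.41), without WT day 0 replicate 1 (0.58) and without WT day 4 replicate 2 (0.50) or 3 (0.55).

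Other members were called in some comparisons. Hoxa13 rose on day 4 in Per1-/- cells (1.42 ± 0.56, limma adjusted p = 0.0331) and in the Per2-/- labelled libraries (1.61 ± 0.56, adjusted p = 0.0182). In WT cells Hoxa13 was at 1.09 ± 0.56 (limma adjusted p = 0.0975), and in all 9 series the day 4 value was above that of day 0. The Per1-/- call of Hoxa13 was lost with voom weights, with a pseudocount of 1, without the filter, and without Per1-/- day 0 replicate 1 (1.37) or 3 (1.36) or day 4 replicate 2 (1.11) or 3 (1.41). The other call was lost without Per2-/- day 0 replicate 2 (1.42) or day 4 replicate 1 (1.19) or 3 (1.499). Hoxa9, with the smallest spread of the members, rose on day 2 in WT cells (0.64 ± 0.16, limma adjusted p = 0.00177), Per1-/- cells (0.80) and the Per2-/- labelled libraries (0.62). The first and the last of these were under the limit with a pseudocount of 1 (0.52 and 0.50), without WT day 0 replicate 2 (0.57) or day 2 replicate 1 (0.56), and without Per2-/- day 0 replicate 1 (0.48) or day 2 replicate 1 (0.51). On day 4 its log2 fold changes of 0.52 to 0.56 were under the limit of 0.58. Hoxa10 and Hoxa6 rose on day 2 in Per1-/- cells, by 0.85 ± 0.19 and 0.99 ± 0.37.

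Hoxa5 fell by 0.99 and Hoxc8 by 1.05 (log2) in the Per2-/- labelled libraries on day 4 (limma adjusted p = 0.00622 and 0.0051). Hoxc12, a posterior gene near the end of Hoxc, rose there (1.52 ± 0.62, limma adjusted p = 0.0402). The Hoxc12 call was lost with a pseudocount of 1 (0.96), without the filter, with voom weights, in a fit of only these groups, and without Per2-/- day 0 replicate 1 (1.10) or 3 (1.46) or day 4 replicate 1 (1.21) or 3 (1.36). Of its spread 18.6% lay between numbers, the lowest share of the members. The Hoxa5 call was lost without Per2-/- day 4 replicate 3 (-0.73).

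Some tested members that were not called on day 4 still lay on 1 side of day 0. On day 4 Hoxa11, Hoxb6, Hoxb8, Hoxc10 and Hoxc11 were below day 0 in all 9 series of 1 genotype and number. Hoxa9 and Hoxa10 were above it in all 9. The share of all genes that lay on 1 side in this way was not counted, so nothing particular to the members is read from it. These genes were picked after their values were seen.

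No Hoxb gene was called in the 6 comparisons of days by limma without a replicate block (0 of 8 in each), nor with voom weights. At an unadjusted p under 0.05 there were 2, both in the Per2-/- labelled libraries on day 4, where 64.5% of all genes were. On the TPM scale 2 were called on day 2 and 1 on day 4 in WT cells. With genotype and replicate number as a block, 1 was called on day 4 in WT cells and 2 in the Per2-/- labelled libraries. The median log2 fold change of the Hoxb genes on day 4 was -0.17 for WT, -0.17 for Per1-/- and -0.34 for the Per2-/- labelled libraries. Hoxd13, despite its high level, was not called by limma without the block either, with log2 fold changes on day 4 of 0.47, 0.27 and 0.76 and a standard error of 0.77.

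The genotypes were compared on each day. By limma 0 of 34 members were called in each of the 9 comparisons. For Per1-/- against WT the same fit called only 1 gene of all those tested on day 2 and 4 on day 4. The study used DESeq2 with the same limits and reported more such genes on both days. The 0 calls therefore do not show that the members were alike between genotypes. The share of all genes called was 0.0134% for Per1-/- against WT, 0.0067% for the Per2-/- labelled libraries against WT and 0.0201% for Per1-/- against these libraries on day 0, and 0.0067%, 0.0268% and 0.0737% on day 2. On day 4 it was 0.0268%, 0.0067% and 0.556%. At an unadjusted p under 0.05 the day 0 comparisons held 3, 0 and 3 members (4.82%, 3.94% and 5.97% of all genes), in the same order. Those of day 2 held 2, 2 and 3 (2.75%, 2.87% and 8.22%) and those of day 4 held 1, 4 and 7 (6.19%, 3.42% and 13.2%). With voom weights again 0 were called. The change to day 4 of Per1-/- or of the Per2-/- labelled libraries against that of WT gave 0 members (0% of all genes in both), with 0 and 1 at an unadjusted p under 0.05 (3.35% and 2.61% of all genes).

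The member with the lowest adjusted p was Hoxa13. On day 0 it was at 2.37 FPKM ± 0.357 in Per1-/- cells (SD, n = 3), 7.32 FPKM ± 3.67 in WT cells and 7.67 FPKM ± 2.61 in the Per2-/- labelled libraries. All 3 Per1-/- values of day 0 (2.14 to 2.78 FPKM) were below the 6 others (4.78 to 11.5 FPKM), with a log2 fold change of -1.49 ± 0.56 against WT (limma adjusted p = 0.929). On days 2 and 4 WT cells overlapped with both, while all Per1-/- values (3.00 to 8.90 and 4.05 to 10.1 FPKM) were below all values of the Per2-/- labelled libraries (9.28 to 23.3 and 10.9 to 40.5 FPKM). On day 4 Per1-/- cells were lower than the Per2-/- labelled libraries by a log2 fold change of -1.80 ± 0.56 (limma adjusted p = 0.15). Hoxd13 was at 14.6 FPKM ± 9.58 in Per1-/- cells on day 4, 40.3 FPKM ± 23.4 in WT cells and 47.4 FPKM ± 35.3 in the Per2-/- labelled libraries, and no difference passed (limma adjusted p = 0.334 for Per1-/- against the Per2-/- labelled libraries).

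Hoxc12 was the member with the largest difference from WT on day 4. All WT values (0.475 to 0.831 FPKM) were below those of Per1-/- cells (2.88 to 4.77 FPKM) and of the Per2-/- labelled libraries (1.34 to 4.18 FPKM). The log2 fold change against WT was 2.24 ± 0.62 in Per1-/- cells (limma adjusted p = 0.424) and 1.84 ± 0.62 in the Per2-/- labelled libraries (limma adjusted p = 1), so neither passed. Hoxc12 had 8 to 122 fragments per library.

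Partners of Hox proteins and regulators of the clusters were listed beside the members. Of 9 TALE cofactors, which bind DNA together with Hox proteins, 3 were called on day 4 for WT, 2 for Per1-/- and 3 for the Per2-/- labelled libraries, each higher than on day 0. Pbx3 had the log2 fold changes 1.53, 1.28 and 1.41 (limma adjusted p = 1.23e-09, 1.71e-08 and 4.56e-09) and Pknox2 1.70, 1.24 and 1.48. Pbx3 was at 3.48, 3.87 and 3.83 FPKM in WT cells on day 0 and at 9.66, 11.7 and 11.4 FPKM on day 4. Meis1 was not called, at 0.50 ± 0.28 in WT cells (limma adjusted p = 0.131).

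Polycomb group proteins keep Hox genes silent where they are not used. Of 11 genes of PRC2, 1 was higher and 4 were lower on day 4 in WT cells, 2 and 3 in Per1-/- cells and 1 and 2 in the Per2-/- labelled libraries. Eed, a core subunit, fell in all genotypes (-0.75, -0.70 and -0.69), as did Phf19, while Jarid2 rose (1.06, 0.80 and 1.07). Of 16 genes of PRC1, 7 were higher and 2 lower in WT cells, 4 and 2 in Per1-/- cells and 8 and 2 in the Per2-/- labelled libraries. Cbx7 (1.35, 1.28 and 1.44), Cbx6 and Cbx8 rose in all genotypes and Pcgf5 and Phc2 fell in all. Of 10 Trithorax genes and H3K27 demethylases 1 was called in WT cells (higher), 2 in Per1-/- cells (1 lower) and 2 in the Per2-/- labelled libraries (both higher). Between 18.8% and 22.9% of all genes were called in each direction in these comparisons, and whether the changes bear on the Hox genes was not tested.

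Retinoic acid turns on the anterior Hox genes in the embryo. Of 17 genes for its synthesis, breakdown and reception, 12 were tested, and 1 was higher and 3 lower on day 4 in WT cells, 2 and 3 in Per1-/- cells and 1 and 4 in the Per2-/- labelled libraries. Cyp26b1, which breaks retinoic acid down, fell in all genotypes (-2.34 ± 0.47, -1.54 ± 0.47 and -1.96 ± 0.47), as did Aldh1a1, which makes it (-1.64, -1.13 and -1.88). Crabp1, a retinoic acid binding protein, had a mean of 348.0 FPKM and fell in Per1-/- cells (-1.61) and in the Per2-/- labelled libraries (-1.55). In WT cells Crabp1 was at -1.18 ± 0.55 (limma adjusted p = 0.068). Of 15 other homeobox, T-box and signalling genes of axial or limb position, 10 were tested. Shox2 (1.01), Tbx4 (1.23), Lmx1b (0.90) and Tbx15 (0.61) rose in WT cells, and Tbx4 (1.23) and Lmx1b (1.44) in the Per2-/- labelled libraries. In Per1-/- cells these 4 genes stood at 0.58, 0.96, 0.47 and 0.35, none of them called. The change in Per1-/- cells minus that in WT cells was -0.43 ± 0.51, -0.27 ± 0.70, -0.42 ± 0.55 and -0.27 ± 0.20 in the same order, and none of these differences passed (limma adjusted p = 1 for each).

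The clusters hold other transcribed rows. There were 46 between the ends of the clusters, of which 17 averaged 0.5 FPKM or more (9 in Hoxa, 6 in Hoxb, 0 in Hoxc and 2 in Hoxd) and 11 were at 0 in all libraries. The libraries did not keep the strand, so a Hox gene and an antisense row over the same bases cannot be told apart. This touches Hoxb3 (52.9% of exon bases shared), Hoxa11 (35.0%, with Hoxa11os) and Hoxa3 (27.1%) most among the tested members. Hotairm1, an antisense RNA of the Hoxa cluster, fell on day 4 in Per1-/- cells (-1.50 ± 0.34, limma adjusted p = 0.000721) and in the Per2-/- labelled libraries (-1.01 ± 0.34, adjusted p = 0.0157) and was at -0.44 ± 0.34 in WT cells (limma adjusted p = 0.269). Hoxd3os1, antisense over the stretch from Hoxd8 to Hoxd3, rose in WT cells, Per1-/- cells and the Per2-/- labelled libraries (1.18, 1.30 and 1.05, SE 0.34, limma adjusted p = 0.00501, 0.00233 and 0.0119). Its levels were low, with 10 to 79 fragments per library. The row 9530018H14Rik, beside Hoxa13, was at 2.28, 6.66 and 13.7 FPKM in number 1 of the Per2-/- labelled libraries and at 0.416, 0.863 and 0.587 FPKM in Per1-/- number 1. These were its highest and lowest libraries on day 4, as they were for Hoxa13.

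The clusters also carry the miR-196 and miR-10 genes, which target Hox messages. Their mature sequences (RefSeq, GRCm38.p6) are shown because the 3 miR-196 genes of 3 clusters share 1 seed and the pair of miR-10 genes another, with the seed, bases 2 to 8, in capitals.
mmu-miR-196a-5p: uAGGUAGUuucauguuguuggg
mmu-miR-196b-5p: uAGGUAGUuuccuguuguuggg
mmu-miR-10a-5p: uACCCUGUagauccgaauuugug
mmu-miR-10b-5p: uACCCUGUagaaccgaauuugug
The mature miR-196a-5p is the same from Mir196a-1 in Hoxb (chr11:96265187-96265208) and Mir196a-2 in Hoxc (chr15:102973365-102973386). Mature miRNAs were not measured in these libraries. The hairpin row of Mir196a-1 was at 6.16 to 23.2 FPKM, from 14 to 58 fragments, and lies upstream of Hoxb9. Mir196b was at 0 in all libraries, and Mir10a, Mir10b and Mir196a-2 had at most 5 fragments.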

How the data were processed

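Polyadenylated RNA from 27 libraries was sequenced without strand information. The authors aligned reads with HISAT2 2.0.5, counted them per gene with featureCounts 1.5.0-p3 (versions from the submitters' processing notes) on GRCm38 and deposited FPKM values. Each value gave a whole number of fragments (tolerance 0.01) with the deposited gene lengths, 15815013 to 24264097 per library, and the scaling matched median-of-ratios size factors. Counting floors cover counting error only.

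Groups came from the labels. limma 3.58.1 (R 4.3.3) was fitted with a trended prior to log2(FPKM + 0.1) of 9 groups for 14932 of 54532 genes averaging 0.5 FPKM or more, with Benjamini-Hochberg adjustment per comparison. Fold changes on this scale understate changes of low genes. Descriptions were made with Python 3.11.15, pandas 2.3.3, numpy 2.4.6, scipy 1.17.1 and matplotlib 3.10.9. The fit was tested on simulated data. The members and gene lists were chosen with earlier results of these data known. Given in every library were the 3 members of each cluster with the highest mean, any member called between genotypes, and at most 5 called in each direction in WT cells on day 4. Of these, 1 member is counted but not reported here. Other members named were chosen after their values were seen. Alternatives were the pseudocount, the filter, TPM, recomputed size factors, voom weights on fragments, no minimum fold change, only the groups compared, a replicate block and each replicate left out.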

Additional observations from a re-analysis of the deposited data

How the results depend on the processing

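The number of Hox members called on day 2 in WT cells was 6 and became 3 with a pseudocount of 1. On the TPM scale the count was 8 in WT cells and 7 in Per1-/- cells on day 4 and 12 in the Per2-/- labelled libraries on day 2, against 5, 4 and 6, and the medians of the anterior, central and posterior bands were 2.217, 15.32 and 12.95 TPM. Leaving out 1 library gave 4 to 8 in WT cells on day 2 and on day 4, 4 to 6 and 4 to 7 in Per1-/- cells, and 3 to 8 and 4 to 10 in the Per2-/- labelled libraries. The count moved by over 1.5 times without WT day 0 replicate 2 (8 on day 4), without Per1-/- day 0 replicate 1 or 2 or day 4 replicate 1 (7 on day 4), without Per2-/- day 0 replicate 1 (3 on day 2) and without Per2-/- day 4 replicate 1 (4 on day 4). The counts between genotypes and of the differences in change stayed at 0 in all settings. Which direction held more calls turned on day 4 in WT cells (3 higher and 2 lower) without WT day 0 replicate 1 or day 4 replicate 2 (2 and 3), in Per1-/- cells (3 and 1) without Per1-/- day 0 replicate 2 or day 4 replicate 1 (3 and 4), and in the Per2-/- labelled libraries (3 and 4) on the TPM scale (6 and 4) and with no minimum fold change (5 and 4). No log2 fold change of a called member changed sign, and of these single-gene values 506 kept their side of the threshold and 66 fell below it. The causes were not tested.

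Replicate numbers did not pair the libraries by the rule used (r over 0.1 in 14 of 27 pairs over all genes). Likeness by number was still present, since 48 of 54 comparisons over all genes and 53 of 54 over Hox members were highest with the own number. With genotype and number as a replicate block, 8 members were called in WT cells and 7 in Per1-/- cells on day 4 (23.5% and 20.6%, against 44.7% and 43.9% of all genes), and 11 and 13 in the Per2-/- labelled libraries on days 2 and 4 (32.4% and 38.2%, against 36.6% and 41.5%), so there the gap between members and all genes was small. With that block, limma also called Hoxa13 (1.09, adjusted p = 0.00187), Hoxc8 (-0.61) and Hoxb13 (-2.13) on day 4 in WT cells and Hoxa6 (0.77), Hoxc5 (-0.81) and Hoxc11 (-0.81) in Per1-/- cells. In the Per2-/- labelled libraries on day 4 it added Hoxd13 (0.76 ± 0.21, adjusted p = 0.00568), Hoxb8 (-0.76), Hoxb4 (-0.70), Hoxc6 (-0.61), Hoxc10 (-0.66), Hoxc11 (-0.81) and Hoxd9 (0.65), and Hoxc12 was lost (limma adjusted p = 0.0569). With voom weights and the replicate block, chosen after seeing the data, the counts were 8, 10, 11 and 14.

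Depth limits Hoxb1 and Hoxd1, at or near 0, and makes single values of Hoxc12 coarse. The pair of Hoxd4 rows overlap, so their values at or near 0 cannot be read as the level of the gene. Whether numbers are cultures is not given in the sources used here.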
